A study of Mus musculus with 24 samples.

Results

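In mouse hindlimb muscle, 749 stretches of accessible chromatin close to the start or end of a gene were called in clearly different numbers of libraries before birth and in the adult. They were taken from 459616 regions called in at least 2 of 24 peak lists on chromosomes 1 to 19, X and Y. Of these, 50486 lay within 1 kb of the start or end of a RefSeq protein-coding or long non-coding gene in the mm10 build. A region was selected when the number of adult lists calling it, of 12, and the number of lists from the embryonic stage E18.5, of 12, differed by 9 or more. This gave 162 regions called more often in the adult, 0.321% of the gene-end regions, and 587 called more often at E18.5, 1.16% of them. The difference between the stages is therefore what selected these regions, and it is given below as a description with no test.

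The assay was ATAC-seq, in which a transposase cuts open chromatin and the positions of enriched cutting are reported as peaks. All 24 libraries came from male mice of the inbred strain FVB/NJ, with no genetic change or treatment: 3 adults and 3 litters at E18.5, each giving the soleus, vastus intermedius, gastrocnemius and vastus lateralis. The series' design text gives the adults as postnatal day 56, whereas the husbandry text gives 3 to 4 months. An E18.5 replicate pooled a muscle from both legs of up to 5 male embryos of 1 litter. The soleus and vastus intermedius are richer in slow fibres and the gastrocnemius and vastus lateralis in fast fibres. Nuclei were taken from undigested tissue, so every cell type in the muscle contributes, and a smaller share of cells of a type cannot be told apart from less accessible chromatin in each cell. The 4 muscles of a replicate share an animal or a litter and are not independent, so n is 3 animals and 3 litters. A gene-end region of each of the muscle genes Acta1 and Des and a region at Myod1 were called in 12 of 12 lists of both stages. The start of Ckm was called in 12 adult and 11 E18.5 lists, so the labelled tissue was present at both stages. Not all regions of muscle genes were so even. Other Des regions had 5 adult and 5 E18.5 calls, and 11 and 12. The end of Ckm had 5 and 12, the start of Ttn 12 and 7, its end 12 and 10, and a region at Neb 4 and 0.

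Skeletal muscle fibres form before birth by fusion of myoblasts and mature after birth, when the foetal forms of contractile proteins are replaced, membrane systems for excitation and calcium release are completed and metabolism shifts towards the use of fatty acids and insulin-dependent glucose. Chromatin at a gene's start opens for the transcription machinery, and a start rich in CpG is often open in most cell types, whereas starts poor in CpG more often depend on cell-type factors such as MEF2 and the MyoD family. Regions near a gene's end can hold enhancers or extended transcription, and being close to a gene does not show which gene a region acts on.

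Several of the regions covered the promoter window of a gene. The windows of 10 of the named genes, 5 in each direction, are shown so that the base composition and motifs described further on can be read in them. They run from 250 bases before to 50 after a RefSeq start, are written 5′ to 3′ on the strand of the gene, and come from RefSeq on GRCm38.p6, the assembly of mm10. Capitals mark matches to the strict MEF2 motif (CTA, then 4 bases of A or T, then TAG), to CAGCTG (the E-box core of the MyoD family), to TATAAA and to GGAATG or its complement CATTCC (TEAD). Xirp2 (chr2:67445752-67446051, plus strand), Ppp1r3a (chr6:14755225-14755524, minus strand), 2310002L09Rik (chr4:73950797-73951096, minus strand), Asb14 (chr14:26894364-26894663, plus strand) and Mettl11b (chr1:163725183-163725482, minus strand) were called more in the adult. Tnnt2 (chr1:135836084-135836383, plus strand), Postn (chr3:54360857-54361156, plus strand), Cnn1 (chr9:22099003-22099302, plus strand), Map7d2 (chrX:159414322-159414621, plus strand) and Arxes2 (chrX:135993570-135993869, plus strand) were called more at E18.5.
Xirp2: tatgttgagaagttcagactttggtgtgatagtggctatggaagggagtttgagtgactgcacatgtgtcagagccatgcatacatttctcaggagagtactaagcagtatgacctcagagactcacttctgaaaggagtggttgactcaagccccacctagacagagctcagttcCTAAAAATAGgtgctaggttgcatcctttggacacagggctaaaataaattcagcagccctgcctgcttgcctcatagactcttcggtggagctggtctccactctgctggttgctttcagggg
Ppp1r3a: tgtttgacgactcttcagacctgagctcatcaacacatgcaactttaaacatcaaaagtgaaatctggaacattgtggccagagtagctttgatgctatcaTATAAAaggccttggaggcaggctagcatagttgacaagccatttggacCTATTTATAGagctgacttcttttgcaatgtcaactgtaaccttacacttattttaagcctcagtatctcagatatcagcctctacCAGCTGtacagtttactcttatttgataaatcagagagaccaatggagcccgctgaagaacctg
2310002L09Rik: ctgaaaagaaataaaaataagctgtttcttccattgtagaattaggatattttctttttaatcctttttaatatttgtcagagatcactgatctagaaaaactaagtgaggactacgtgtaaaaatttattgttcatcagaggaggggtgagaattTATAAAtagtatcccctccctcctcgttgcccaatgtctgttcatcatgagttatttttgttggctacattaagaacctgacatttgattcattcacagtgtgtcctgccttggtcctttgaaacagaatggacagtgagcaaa
Asb14: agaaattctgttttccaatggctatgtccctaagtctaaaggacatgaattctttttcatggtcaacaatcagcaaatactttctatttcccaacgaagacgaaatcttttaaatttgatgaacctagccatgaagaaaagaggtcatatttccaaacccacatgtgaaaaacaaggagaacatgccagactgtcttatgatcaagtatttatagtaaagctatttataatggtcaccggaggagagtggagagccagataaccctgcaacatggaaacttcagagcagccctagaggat
Mettl11b: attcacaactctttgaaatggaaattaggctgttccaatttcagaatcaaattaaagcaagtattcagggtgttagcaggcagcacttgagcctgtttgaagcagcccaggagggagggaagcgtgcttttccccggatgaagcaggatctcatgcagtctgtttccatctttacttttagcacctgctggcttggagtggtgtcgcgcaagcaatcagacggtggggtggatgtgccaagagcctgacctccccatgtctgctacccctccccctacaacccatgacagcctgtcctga
Tnnt2: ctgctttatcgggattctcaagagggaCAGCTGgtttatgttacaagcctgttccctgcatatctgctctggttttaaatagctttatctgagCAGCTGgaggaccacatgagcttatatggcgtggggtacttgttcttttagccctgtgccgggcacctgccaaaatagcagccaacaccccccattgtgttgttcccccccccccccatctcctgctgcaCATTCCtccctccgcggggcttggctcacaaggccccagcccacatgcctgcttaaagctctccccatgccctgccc
Postn: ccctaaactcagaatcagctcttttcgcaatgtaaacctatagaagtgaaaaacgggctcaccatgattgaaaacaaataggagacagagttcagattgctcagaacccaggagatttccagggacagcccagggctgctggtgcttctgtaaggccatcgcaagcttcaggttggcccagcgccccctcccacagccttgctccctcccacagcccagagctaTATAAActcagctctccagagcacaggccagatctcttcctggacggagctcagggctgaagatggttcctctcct
Cnn1: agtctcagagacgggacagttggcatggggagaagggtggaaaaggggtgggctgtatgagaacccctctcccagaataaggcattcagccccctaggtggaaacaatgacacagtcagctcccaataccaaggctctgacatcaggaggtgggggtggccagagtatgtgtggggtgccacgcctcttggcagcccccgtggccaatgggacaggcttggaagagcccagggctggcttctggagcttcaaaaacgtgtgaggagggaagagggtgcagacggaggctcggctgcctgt
Map7d2: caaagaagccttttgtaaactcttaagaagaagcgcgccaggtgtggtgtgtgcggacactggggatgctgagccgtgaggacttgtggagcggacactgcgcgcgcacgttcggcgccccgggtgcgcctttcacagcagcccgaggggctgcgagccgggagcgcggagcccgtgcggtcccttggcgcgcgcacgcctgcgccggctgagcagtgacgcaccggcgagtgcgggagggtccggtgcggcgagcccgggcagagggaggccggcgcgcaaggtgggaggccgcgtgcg
Arxes2: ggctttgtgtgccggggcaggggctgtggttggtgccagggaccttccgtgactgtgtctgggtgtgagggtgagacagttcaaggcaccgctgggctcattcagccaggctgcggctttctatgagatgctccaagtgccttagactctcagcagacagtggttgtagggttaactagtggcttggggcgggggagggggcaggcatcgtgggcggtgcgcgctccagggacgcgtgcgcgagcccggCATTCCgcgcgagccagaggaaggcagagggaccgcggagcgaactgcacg

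The Xirp2 and Ppp1r3a windows each hold a strict MEF2 match, beginning 74 and 100 bases before the start. The Ppp1r3a window also holds a TATAAA and a CAGCTG, and that of 2310002L09Rik a TATAAA. Those of Asb14 and Mettl11b hold none of the marked motifs. The windows called more in the adult contain 1 CpG at Xirp2, 2 at Ppp1r3a, 2 at 2310002L09Rik, 3 at Asb14 and 5 at Mettl11b. At E18.5, the Tnnt2 window holds CAGCTG and CATTCC, and the Postn window a TATAAA close to its start, while the Cnn1 window holds none of the marked motifs. The windows of Tnnt2, Postn and Cnn1 contain 5, 5 and 6 CpG, that of Map7d2 contains 40 and that of Arxes2 contains 21, so the windows called more at E18.5 include starts both poor and rich in CpG.

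The lists held between 115333 peaks (vastus intermedius of adult 1) and 228137 peaks (soleus of litter 2). Over animals, adult lists averaged 166593 ± 16643 peaks and E18.5 lists 167856 ± 22855 (SD, n = 3 each), so list length did not separate the stages. The gene-end regions called in a list reached higher numbers at E18.5. They ran from 20478 (vastus intermedius 1) to 25923 (vastus lateralis 2) in the adult and from 21994 (soleus 3) to 30554 (soleus 2) at E18.5. Adult soleus 2 and 3 called fewer of the adult regions than the other adult libraries, and the 4 libraries of litter 3 called fewer of the E18.5 regions than those of litter 1. Without adult soleus 2 and 3, the same cutoff of 75 percentage points gave 192 adult and 482 E18.5 regions. Without litter 3 it gave 152 adult regions and 1008 E18.5 regions. Dates in the file names put adult 1 and litter 1 apart from the other animals of their stage, and the stages also differ in date, so date and stage cannot be told apart.

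Of the 162 regions called more in the adult, 88 were close to a protein-coding gene and 74 only to a long non-coding RNA. A set of 10, or 0.0198% of gene-end regions, was called in 12 of 12 adult lists and in 0 E18.5 lists. Of these 10, 6 were close to coding genes: Xirp2, Cpt1b with Chkb, Cebpd with Spidr, Arrdc5, Pgm5 and Nt5e. The other 4 were at the non-coding genes Gm51904, Gm32339, Gm13073 and Gm52920.

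**Figure D1:**
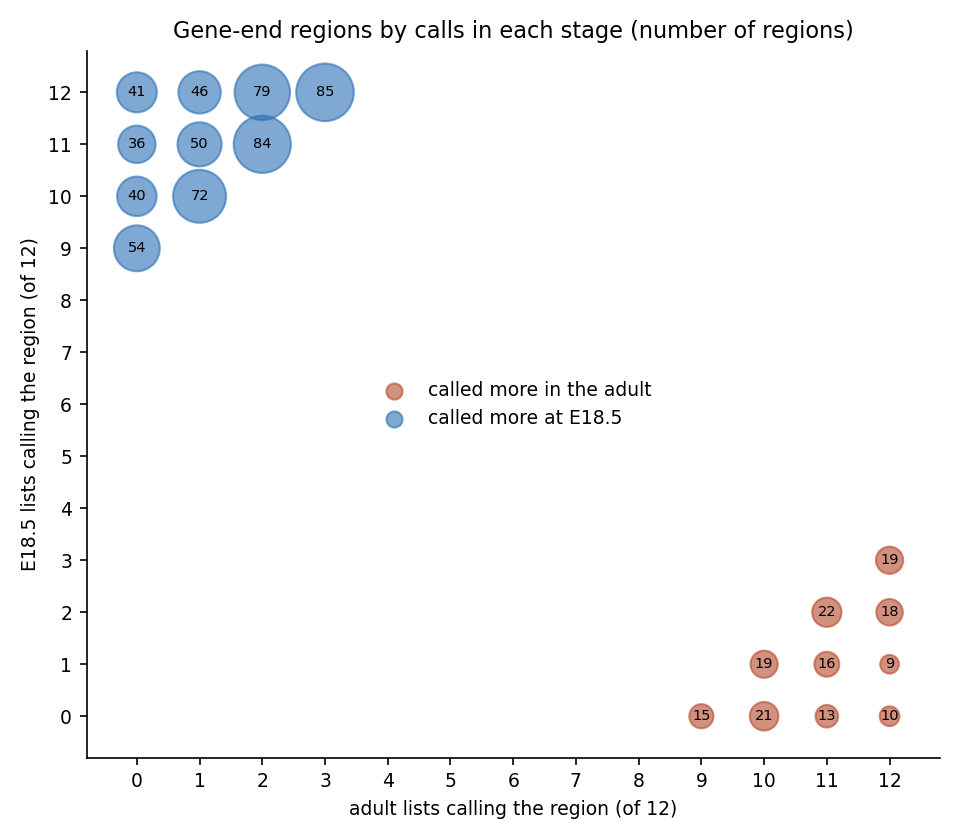
Number of gene-end regions by the number of adult lists (horizontal axis, of 12) and E18.5 lists (vertical axis, of 12) that called them. Disc area and the number inside give the count of regions; the 2 selected corners are shown, with 10 regions at 12 adult and 0 E18.5 lists and 41 at 0 adult and 12 E18.5 lists.

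Of 527 genes on lists of muscle programs and cell type markers, 515 had a gene-end region, and 14 had one called more in the adult. Over all genes with such a region, 173 of 28772 did, or 0.601%. The sarcomere list gave the most, with 4 of 20 genes, among them Xirp2, Myot and Ldb3. The list for calcium handling and excitability gave 2 of 18, Trdn and Clcn1, and that for oxidative and fatty acid metabolism 3 of 32, Cpt1b, Idh2 and Vegfa. Single genes came from the lists for fibre type regulators (Six4, of 29), glycolysis (Slc2a4, of 20), hormone response and atrophy (Cebpd, of 21), myogenic progenitors (Dll1, of 23) and extracellular matrix (Bgn, of 30). The lists and regions were chosen with earlier results of these data known, so these counts describe the regions and are not evidence of a theme.

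Among the sarcomere genes, Xirp2, which encodes an actin-binding protein of the Z-disc and myotendinous junction, had 2 neighbouring regions. The region at chr2:67446428-67448264, 428 bp from the start, was called in all 12 adult libraries and no E18.5 library. The region over the start itself, chr2:67445677-67446273, was called in 9 adult libraries, all but soleus 1, gastrocnemius 2 and vastus intermedius 2, and in 0 at E18.5. At both, every muscle had 2 or 3 adult calls of 3 and 0 calls at E18.5. Peak width was summed over all peaks a library called in a region, here and below. In the wider region it had a median of 602 bp over the libraries that called it, from 266 to 1503 bp.

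Myot, which encodes the Z-disc protein myotilin, also had 2 regions, both on chromosome 18. The first, chr18:44333362-44334354, was called in 10 adult libraries and 0 at E18.5, and the 2 adult libraries that missed it were soleus 2 and soleus 3. The second, chr18:44356183-44361217, was called in 12 adult libraries and in 3 at E18.5, which were gastrocnemius 1 and vastus intermedius 1 and 2. The summed width of its peaks had a median of 2592 bp, which can be 1 peak or several. The strand of Myot was not known from the promoter table, so neither region was assigned to the start or the end of the gene.

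Ldb3, a Z-disc protein that binds alpha-actinin, had a region near its end (chr14:34527639-34529712) called in 12 adult libraries and in E18.5 vastus lateralis 2 and 3. The 2 calls at E18.5 thus came from a single fast-biased muscle. Of 25 other regions in or within 1 kb of Ldb3, 2 were called in all 24 lists.

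Trdn encodes triadin, which holds calsequestrin at the calcium release channel, and Clcn1 the chloride channel that stabilises the resting fibre membrane. The Trdn region (chr10:33082881-33084207) was called in 12 adult libraries and in E18.5 gastrocnemius 1. The region near the start of Clcn1 (chr6:42282549-42283948), which also lies near Casp2, was called in 11 adult libraries, all but soleus 1, and again only in gastrocnemius 1 at E18.5. Both regions were thus nearly complete in the adult and had a single E18.5 call from the same library.

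Among metabolic genes, Cpt1b, which brings long-chain fatty acids into mitochondria, had a region shared with the end of Chkb (chr15:89424854-89426633) that was called in 12 adult libraries and 0 at E18.5. A second gene-end region of Cpt1b was called in 11 adult and 6 E18.5 lists. The region near Slc2a4, the insulin-responsive glucose transporter GLUT4 (chr11:69939124-69941532), lay 754 bp from that gene and also near Ybx2, and was called in 11 adult libraries, all but vastus lateralis 1, and 0 at E18.5. Idh2, the mitochondrial isocitrate dehydrogenase, had a narrow region 450 bp from its start (chr7:80119058-80119657, median summed peak width 393.5 bp) called in 10 adult libraries and in E18.5 soleus 2. Of 9 other regions in or within 1 kb of Idh2, 1 was called in all 24 lists. Vegfa, the growth factor of blood vessels, had a region at its end (chr17:46015175-46016970) called in 11 adult libraries and in E18.5 vastus intermedius 1 and soleus 3. Of 7 other regions of Vegfa, 1 was called in all 24 lists. All 4 selected regions were called in 2 or 3 of 3 adult libraries of every muscle.

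The remaining listed genes encode regulators and matrix. Cebpd, a leucine zipper transcription factor induced by glucocorticoids, had a region 226 bp away (chr16:15889771-15891115) called in 12 adult and 0 E18.5 lists, while another gene-end region of Cebpd was called in 12 lists of both stages. Its relative Cebpb had a region near its end (chr2:167690614-167691498) called in 11 adult lists, all but soleus 3, and 0 at E18.5. Six4, a homeobox factor of myogenesis, had one near its end (chr12:73097241-73099003) in 11 adult libraries and in E18.5 gastrocnemius 1. Bgn, the matrix proteoglycan biglycan, had one near its end (chrX:73496285-73497383) in 10 adult libraries, all but soleus 2 and 3, and 0 at E18.5. Dll1, a Notch ligand, had one near its end (chr17:15368244-15369278) in 10 adult libraries and in E18.5 vastus lateralis 3. Apart from Cebpd, whose strand was not known, these regions lay near the gene's end and not over its start. Another region called in all 24 lists lay in or within 1 kb of Six4 (1 of 2 others), Dll1 (1 of 6) and Cebpb (1 of 1). At Bgn, 0 of 3 others were so called.

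Of coding genes on no list, those with the largest difference included Pgm5, a protein of cell-matrix junctions in muscle, Nt5e, the surface enzyme CD73 that makes adenosine, and Arrdc5, an arrestin-domain protein. Each had a region near its end called in 12 adult lists and 0 at E18.5. Of 57 other regions in or within 1 kb of Pgm5, 5 were called more at E18.5 and 0 more in the adult at the same cutoff. The start of Ppp1r3a, the subunit that targets protein phosphatase 1 to glycogen in muscle (chr6:14754586-14755833), was called in 11 adult lists, all but soleus 3, and 0 at E18.5. The regions at the annotated starts of Mea1 and 2310002L09Rik were likewise called in 11 adult lists, both missed by soleus 2, and in 0 at E18.5. The Mea1 region was not among those matched to a promoter window, and the 1 other region of Mea1 was called in all 24 lists. The region at the start of Asb14, a SOCS-box protein (chr14:26892967-26896572), was called in 12 adult lists and in E18.5 gastrocnemius 3. Gpt, the alanine aminotransferase, and Mettl11b, a methyltransferase of protein N-termini, also had regions with 12 adult calls and 1 E18.5 call. The 1 other region of Gpt was called in all 24 lists, against 0 of 5 others of Mettl11b and 0 of 8 of Asb14. Starts and ends were both represented in this group.

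A wider reading of the adult regions, with genes picked after their values were seen, gave several genes of muscle fibres. They included the starts of Ckmt2, the mitochondrial creatine kinase of sarcomeric muscle, called in 12 adult and 3 E18.5 lists, and Sgca, alpha-sarcoglycan, called in 11 and 2. The start of Lmod2, a leiomodin that elongates thin filaments, was called in 11 adult and 2 E18.5 lists, and that of Smpx, a small muscle protein of the X chromosome, in 11 and 1. The start of Rpl3l, the form of a ribosomal protein made in striated muscle, was called in 12 adult lists and in 3 at E18.5. A second set held metabolic or stress genes, such as those with the region at the end at Txnip, an inhibitor of thioredoxin (10 adult and 1 E18.5 list), and Hspa1a, a heat shock protein (11 and 2). Another set held the interferon-induced genes Ifi47, Trim30a and Gvin1, called in 11 or 12 adult lists and 1 or 2 at E18.5. These sets are illustrations, since they were chosen by eye and have no count to compare with.

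**Figure D2:**
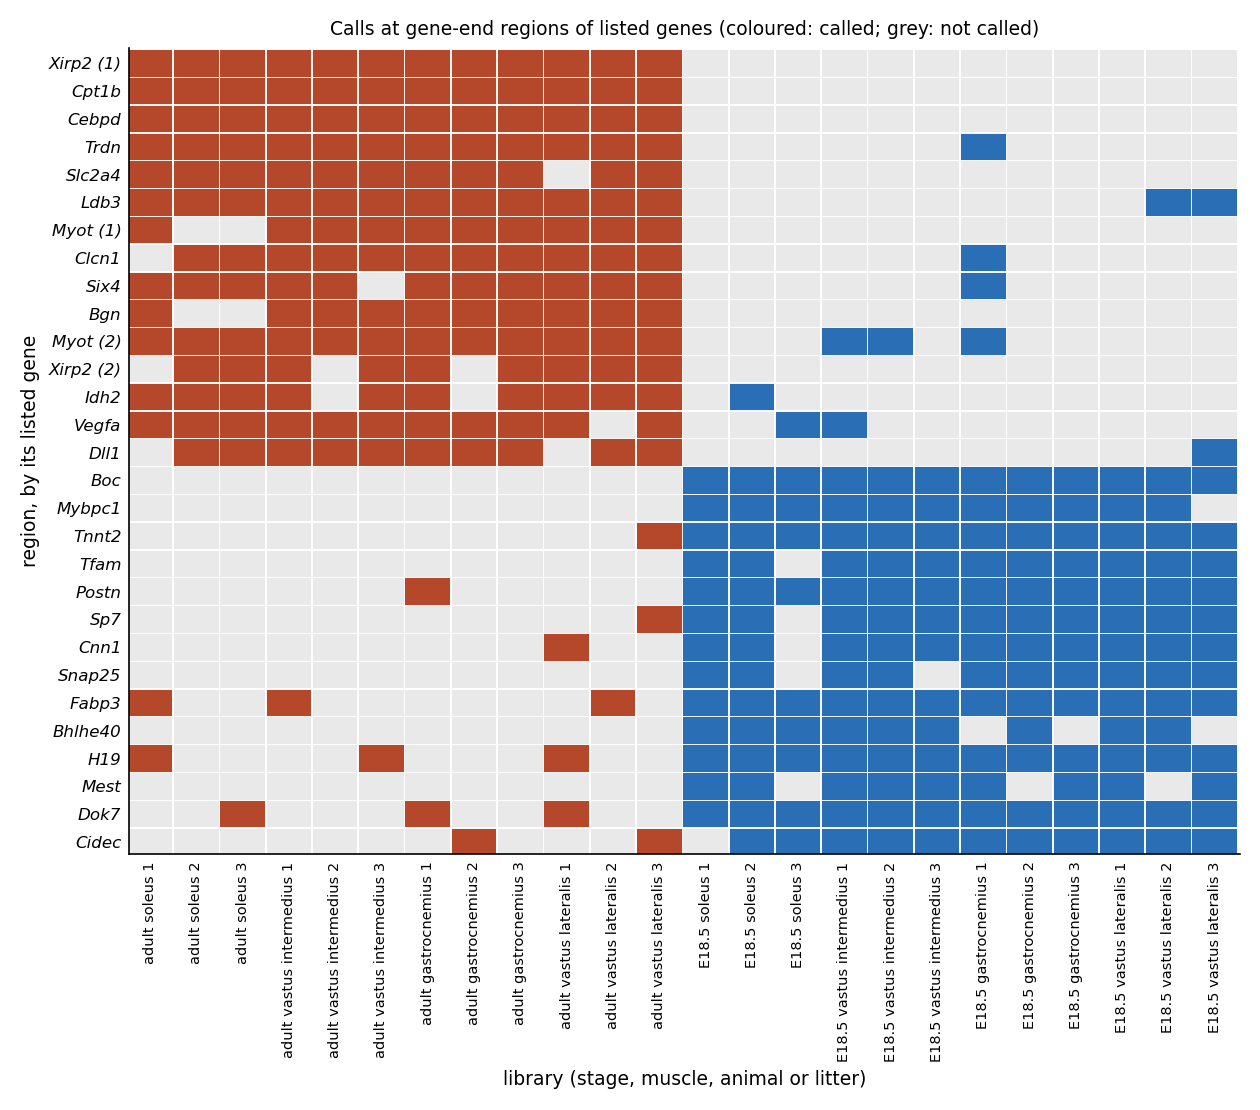
Calls at the gene-end regions of listed genes named in the text (rows) in each library (columns; adult on the left, E18.5 on the right). Coloured cells were called and grey cells were not; Xirp2, Cpt1b and Cebpd were called in all 12 adult libraries and no E18.5 library, and Boc in all 12 E18.5 libraries and no adult library, while 2 regions at Xirp2 and at Myot are numbered.

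Of the 587 regions called more at E18.5, 322 were close to a coding gene and 265 only to a long non-coding RNA. The number called in 12 E18.5 lists and 0 adult lists was 41, or 0.0812% of gene-end regions, of which 20 were close to coding genes and 21 were not. On the same 527 listed genes, 14 had such a region, against 637 of 28772 genes in all, or 2.21%. No list gave more than 2 genes: H19 and Mest among 22 genes of foetal growth and Fabp3 and Tfam among 32 of oxidative metabolism. Single genes came from the sarcomere list (Mybpc1, of 20), embryonic and neonatal muscle (Tnnt2, of 14), the clock (Bhlhe40, of 17), myogenic progenitors (Boc, of 23), extracellular matrix (Postn, of 30) and the neuromuscular junction (Dok7, of 13). The others were single markers of nerve (Snap25, of 10), smooth muscle (Cnn1, of 8), bone (Sp7, of 9) and fat (Cidec, of 7). The lists for fast fibres, slow fibres, limb patterning and Hox genes, developmental transcription factors, growth factor signalling, the cell cycle and immediate early genes had 0 genes in either direction. The same was true of the marker lists for fibroadipogenic, tendon, endothelial, immune, erythroid and heart muscle cells.

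Among muscle genes, Tnnt2, the cardiac form of troponin T that is also made in embryonic skeletal muscle, had a region over its start (chr1:135835204-135836593) called in all 12 E18.5 libraries and in adult vastus lateralis 3. Mybpc1, the slow form of myosin-binding protein C, had one 426 bp from its start (chr10:88605655-88606837) called in 11 E18.5 libraries, all but vastus lateralis 3, and 0 in the adult. Boc, a co-receptor for Hedgehog signals that promotes myoblast differentiation, had one at chr16:44483991-44485389 called in 12 E18.5 libraries and 0 in the adult. Dok7, the adaptor that activates the kinase MuSK at the neuromuscular junction, had one 928 bp from its start (chr5:35054722-35055643) called in 12 E18.5 libraries and in 3 adult libraries. Other regions in or within 1 kb of these genes did not all go the same way: Mybpc1 had 27 others, of which 3 were called more in the adult and 0 more at E18.5 at the same cutoff, and Dok7 had 15, of which 1 was called more in the adult and 0 more at E18.5.

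The imprinted genes of foetal growth followed. H19, a non-coding RNA expressed from the maternal allele, had a region at chr7:142574378-142575644 called in 12 E18.5 and 3 adult libraries, 1 each of soleus, vastus intermedius and vastus lateralis. Mest, expressed from the paternal allele, had one near its end (chr6:30749365-30751652) called in 9 E18.5 and 0 adult libraries, with a median summed peak width of 360 bp. The narrow peaks and the 3 missed libraries put Mest at the edge of the selection.

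Genes of matrix and of other cell types also appeared. Postn, the matrix protein periostin, had a region at chr3:54359848-54361383 called in 12 E18.5 libraries and in adult gastrocnemius 1. The start of Cnn1, the smooth muscle protein calponin (chr9:22097989-22099687), was called in 11 E18.5 libraries and in adult vastus lateralis 1. Sp7, the osteoblast factor osterix, had a region at chr15:102366257-102367818 called in 11 E18.5 libraries and in adult vastus lateralis 3. Snap25, a neuronal protein of vesicle fusion, had one at chr2:136713566-136714682 called in 10 E18.5 libraries and 0 in the adult. Cidec, a lipid droplet protein, had one at its end (chr6:113424475-113426585) in 11 E18.5 and 2 adult libraries. E18.5 soleus 3, from litter 3, was a library that missed the regions at Cnn1, Sp7 and Snap25.

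For these marker lists as a whole, the numbers of gene-end regions called in a library overlapped between the stages. Of 26 regions of nerve and Schwann cell genes, 9 to 15 were called in adult libraries and 12 to 18 at E18.5, and Snap25 was the 1 gene of that list with no adult call. Of 24 regions of smooth muscle and pericyte genes, 7 to 15 were called in adult libraries and 8 to 16 at E18.5. The 21 regions of cartilage and bone genes gave 5 to 12 and 7 to 14, and the 19 of adipocyte genes 4 to 11 and 5 to 11. Heart muscle genes gave 2 to 8 of 15 regions in adult libraries and 5 to 13 at E18.5, and erythroid genes 2 to 7 of 10 and 4 to 8. Endothelial genes gave 9 to 17 of 25 and 12 to 19, immune genes 6 to 14 of 25 and 6 to 15, tendon genes 8 to 12 of 15 and 10 to 13, and fibroadipogenic genes 11 to 15 of 20 at both stages. The part of such cells in the regions called more at E18.5 was not tested.

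Metabolic and clock genes completed the listed genes. Tfam, which maintains mitochondrial DNA, had a region near its end (chr10:71225818-71226679) called in 11 E18.5 libraries, all but soleus 3, and 0 in the adult. Fabp3, the fatty acid carrier of heart and muscle, had one over its end, shared with Zcchc17 (chr4:130314918-130316479), called in 12 E18.5 and 3 adult libraries. Bhlhe40, a repressor in the circadian clock, had a narrow region (chr6:108665281-108665962, median summed peak width 303 bp) called in 9 E18.5 libraries and 0 in the adult. The selected regions of Tfam and Bhlhe40 had no adult call in any muscle, but other regions of these genes did. Of 4 other regions in or within 1 kb of Tfam, 1 was called in all 24 lists. Bhlhe40 had 2 other regions, and 2 were called in all 24 lists.

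Of coding genes on no list, 10 were named from those called in 12 E18.5 and 0 adult lists. They included Thbs1, the matrix protein thrombospondin (chr2:118127253-118129457), and Lrig1, a brake on growth factor receptors, whose end shared a region with Slc25a26 (chr6:94603381-94605186). Of 41 other regions in or within 1 kb of Lrig1, 1 was called more in the adult and 1 more at E18.5. A pair of genes of the X chromosome were covered at their start, Map7d2, a microtubule-associated protein (chrX:159413899-159415718), and Arxes2, named for its expression in fat cells (chrX:135993190-135994463). Slf2, a factor of DNA repair, Ndfip1, an adaptor of ubiquitin ligases, Pgap4, an enzyme of glycolipid anchors, Spink13, a protease inhibitor, Glrp1 and 4930591A17Rik made up the rest. Median peak widths at these 10 ran from 430.5 bp at Slf2 to 1083.5 bp at Map7d2, and every muscle had 3 of 3 E18.5 calls.

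Further genes near E18.5 regions were picked by eye after their values were seen, and are illustrations with no count to compare with. On the list of nerve and Schwann cell markers, 1 of 10 genes had such a region. Genes known from neurons that were picked in this way include Gprin1 (12 E18.5 lists and 1 adult list), Syn1 (11 and 2), which coats synaptic vesicles, and Nnat (12 and 2). Connective tissue genes include the starts of Col7a1 (12 and 1) and Lrrc17 (12 and 2) and the end of Col16a1 (12 and 1). Foetal and progenitor genes include Trim71 (12 and 3), a regulator of stem cells, Mbnl3 (12 and 3), a splicing factor of the muscleblind family, and Dach2 (12 and 2). Transcription factors of other tissues include Ptf1a of the pancreas (10 and 1), Foxa1 of endoderm (10 and 1) and Vsx1 of the retina (12 and 2). Germ cell genes include Tex16 (11 and 0) and Spo11 (11 and 2), which cuts DNA in meiosis. A call at such a gene says that the chromatin was open in some cells and nothing about its expression.

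Position in the gene differed between the directions. Of the adult regions, 51 (31.5%) lay near starts alone and 72 (44.4%) near ends alone. Of the E18.5 regions, 253 (43.1%) lay near starts alone and 184 (31.3%) near ends alone. Over all gene-end regions the shares were 38.4% and 34.4%, and over the 12796 regions called in 11 or 12 lists of both stages they were 63.2% and 8.26%. Both directions thus held far fewer starts and far more ends than the regions open at both stages. For 35 adult and 131 E18.5 regions the strand, and so the end of the gene, was not known, and 4 and 19 lay near both a start and an end.

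Both directions also lay less often near coding genes, in 54.3% of the adult and 54.9% of the E18.5 regions, against 65.8% of all gene-end regions and 88.5% of those called at both stages. The median merged width was 1354 bp in the adult and 1260 bp in the E18.5 direction, against 1192 bp over all and 1962 bp over those called at both stages. The X chromosome carried 3 adult regions (1.85%) and 32 E18.5 regions (5.45%), against 1.23% of all gene-end regions. All mice were male. Of the 162 adult regions 17, and of the 587 E18.5 regions 48, lay within 50 kb of another of the same kind. Over all gene-end regions this held for 47003 of 50486. Such a count depends on how many regions a set holds, so these numbers do not show whether the selected regions cluster.

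Other regions of the same genes, taken as those in the gene or within 1 kb of it, were counted for the selected regions near coding genes. Of the 88 adult regions, 57 (64.8%) were at genes with another region called in 11 or 12 lists of both stages, and 3 (3.41%) at genes with no other region. Of the 322 E18.5 regions, 142 (44.1%) were at genes with another such region and 29 (9.01%) at genes with none. Among all 33218 gene-end regions near coding genes, 49.8% had another such region and 6.07% had none. A selected region cannot itself be called in 11 or 12 lists of both stages. With regions so called left out, 57.5% of the remaining 21896 had another such region and 4.59% had none. The adult share with another such region was thus above, and the E18.5 share below, both general shares, which was not tested. Another region past the same cutoff in the same direction was found for 11 adult and 53 E18.5 regions, and in the opposite direction for 3 and 7. No share over all gene-end regions was counted for these. Past the cutoff, regions higher at E18.5 were the commoner kind, at 1.06% of all kept regions against 0.361% higher in the adult. Cebpd had 1 other region, called in 12 lists of both stages.

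Sequence was not used in the selection, and the RefSeq promoter windows allow it to be described at starts. In all, 40 windows of 300 bases lay over 36 adult regions, and 240 windows over 199 E18.5 regions. Adult windows had a median GC content of 48.0% and 3.5 CpG, and 4 of 40 (10%) held 10 or more CpG. E18.5 windows had a median GC content of 53.0% and 8 CpG, and 96 of 240 (40.0%) held 10 or more. The 23050 windows over any region called in 2 or more lists had 57.7%, 14 CpG and 60.5%. All 32851 windows had 52.7%, 7 CpG and 43.5%, and the 13570 windows over regions called at both stages had 62.0%, 22 CpG and 84.8%. The adult windows were thus the poorest in CpG of these sets. The E18.5 windows were close to windows in general and below those over a called region.

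Short motifs were counted on both strands, except TATAAA, which was counted on the strand of the gene. The strict MEF2 motif was present in 4 of 40 adult windows (10%), at Xirp2, Ppp1r3a, Gm40601 and Gm40863, in 0 of 240 E18.5 windows, in 0.516% of windows over any called region and in 183 of all windows (0.557%). A wider MEF2 form, which also allows T as the first base and A as the last and was added after seeing the data, was present in 9 adult windows (22.5%), 4 E18.5 windows (1.67%), 1.88% of windows over a called region and 3.19% of all windows. TATAAA was present in 20% of adult windows, 3.75% of E18.5 windows, 5.24% of windows over a called region and 8.32% of all windows. In the same order, CAGCTG was present in 27.5%, 19.6%, 17.5% and 16.3%, and the wider E-box CANNTG, which includes it, in 90%, 72.1%, 68.9% and 72.3%. GGGCGG, the GC box, was present in 10% of adult windows, 37.5% of E18.5 windows, 48.8% of windows over a called region and 35.7% of all windows. GGAATG was present in 12.5%, 22.5%, 13.7% and 14.7%, the AP-1 motif TGAGTCA or its complement TGACTCA in 10%, 8.33%, 4.75% and 5.20%, and CCAAT in 42.5%, 37.5%, 36.2% and 37.4%. The adult windows are few, and windows of 1 gene overlap, so these shares are descriptions of letters and not of bound factors.

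**Figure D3:**
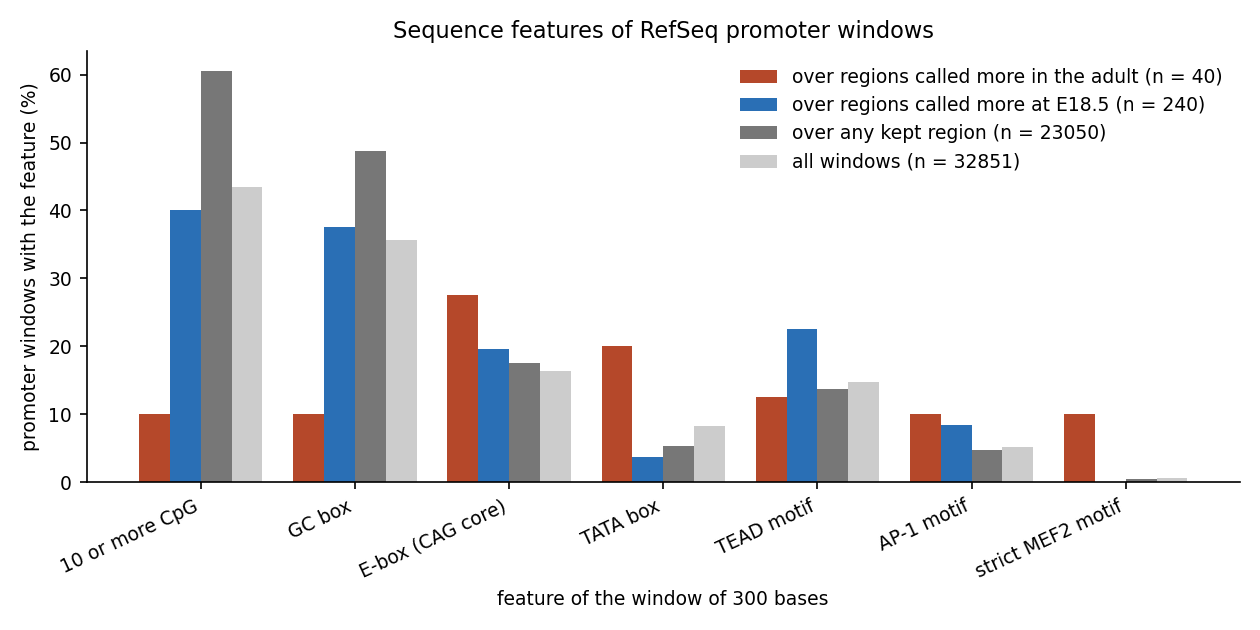
Share of promoter windows of 300 bases (vertical axis, percent) that hold 10 or more CpG or a given motif (horizontal axis), for windows over adult regions (40), over E18.5 regions (240), over any region called in 2 or more lists (23050) and for all windows (32851). Bars have no error bars; the adult set has the lowest share with 10 or more CpG (10%) and the highest share with a strict MEF2 match (10%, against 0.557% of all windows).

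Libraries of a stage varied in how many of its regions they called. Adult regions were called at 95.5% in adult 1, 88.1% in adult 2 and 89.2% in adult 3, averaged over the 4 muscles, and at 10.8%, 8.33% and 8.80% in litters 1 to 3. E18.5 regions were called at 98.9%, 94.0% and 83.4% in litters 1 to 3 and at 9.20%, 11.9% and 10.8% in adults 1 to 3. As mean and SD over animals, adult regions were called at 90.9 ± 4.00% in adults and 9.31 ± 1.31% in litters. The E18.5 regions were called at 92.1 ± 7.95% in litters and 10.6 ± 1.37% in adults (n = 3 each). The gap between stages is fixed by the selection, whereas the spread within a stage is not fully fixed by it.

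Among adult muscles, the soleus called the fewest adult regions: 144, 115 and 116 of 162 in its 3 libraries, or 77.2 ± 10.2% (SD, n = 3). The gastrocnemius called 160, 154 and 153, the vastus intermedius 160, 151 and 149, and the vastus lateralis 155, 151 and 160, with means from 94.7% to 96.1%. Every soleus library was below every other adult library. The soleus was also lowest among all 16747 gene-end regions called in 9 or more adult lists, at 91.8% against 95.0% to 97.4%, but by a smaller margin. Of 176 calls that adult libraries missed at the adult regions, 111 (63.1%) were in the soleus, against 43.7% over those 16747 regions. The soleus lists were not short, with 149426 to 211875 peaks against 115333 to 145382 in the vastus intermedius, the other slow-biased muscle. In 2 adult regions, at Gm52253 and Gm35456, no soleus library had a call, and in 81 all 3 had one. With the 6 soleus libraries of both stages left out, the cutoff of 75 percentage points gave 253 adult and 624 E18.5 regions.

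**Figure D4:**
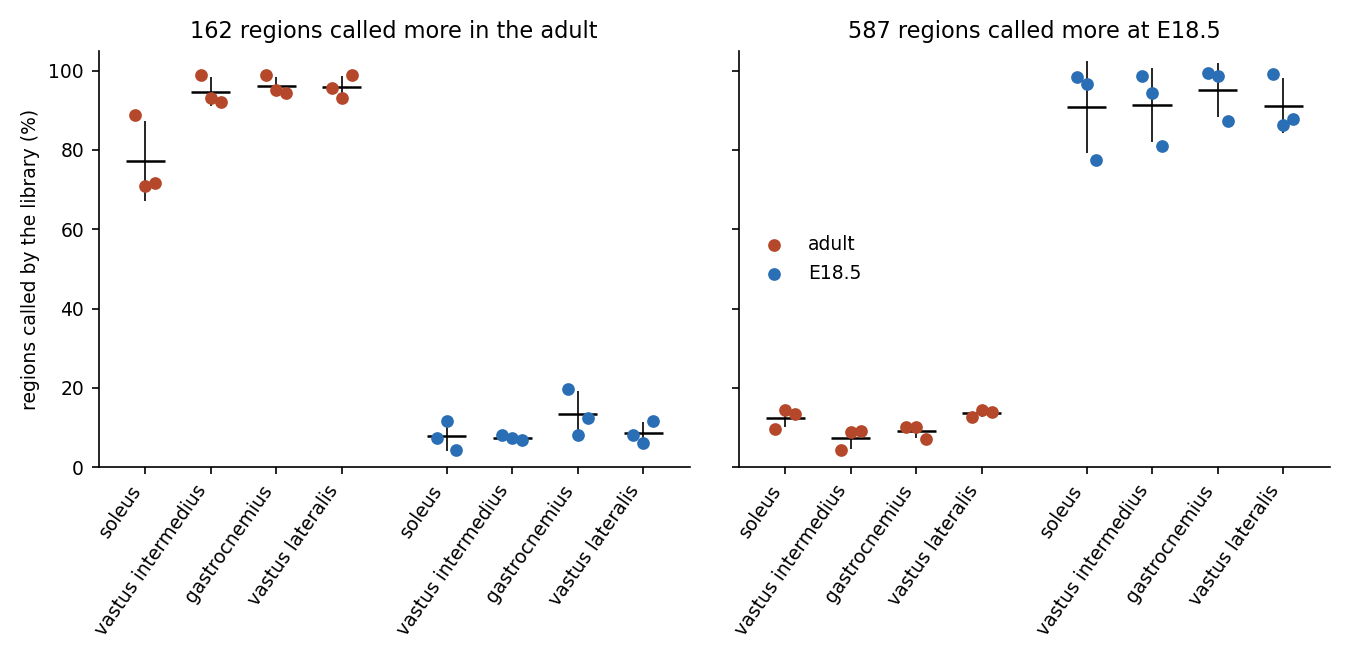
Share of the 162 adult regions (left) and the 587 E18.5 regions (right) called by each library (vertical axis, percent), by stage and muscle (horizontal axis). Points are libraries of animals or litters 1 to 3 from left to right, bars are means and vertical lines 1 SD; the adult soleus lies at 71.0% to 88.9% of the adult regions, below the other adult muscles, and 1 library of litter 3 is lowest at E18.5 in the soleus, vastus intermedius and gastrocnemius.

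At E18.5, libraries differed more between litters than between muscles. Libraries of litter 1 called 578 to 584 of the 587 E18.5 regions, those of litter 2 called 507 to 579 and those of litter 3 called 454 to 516. Of 556 calls missed at these regions, 390 (70.1%) were in litter 3, against 63.1% over all 20001 gene-end regions called in 9 or more E18.5 lists. Muscle means ran only from 90.8 ± 11.7% in the soleus to 95.2 ± 6.75% in the gastrocnemius. Among adult regions, E18.5 gastrocnemius 1 had the most calls at that stage, 32 of 162, where the other 11 E18.5 libraries had 7 to 20. It also called the most of all gene-end regions with 9 or more adult calls, 97.2% against 89.8% to 96.5%. Its list held 211354 peaks, while soleus 2, with 228137, called 19 adult regions. Among the named adult genes, E18.5 gastrocnemius 1 held the only E18.5 call at Trdn, Clcn1 and Six4.

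Fibre bias was not used in the selection, and each stage was compared between its 6 slow-biased and 6 fast-biased libraries. With calls alone, no selected region could reach p = 0.05, because a region called in at least 9 of 12 libraries or at most 3 of 12 allows no two-sided Fisher's exact p below 0.182. Across the genome, 0 of 48133 testable regions in the adult and 0 of 49905 at E18.5 passed an adjusted p of 0.05, so 0% were called. At an unadjusted p under 0.05 there were 1612 and 412. In simulated data this test recovered 0 of 200 regions called in one class of muscle alone, so a count of 0 says nothing of how many regions differ. As a description, 81 adult regions (50%) had more fast than slow calls and 16 (9.88%) more slow than fast, against 21.1% and 5.67% of all gene-end regions called in 9 or more adult lists. With the vastus intermedius as the only slow-biased muscle, a comparison added after seeing the data, 24 adult regions (14.8%) had the larger share of calls in fast-biased and 24 in slow-biased libraries. With the soleus alone these were 80 (49.4%) and 18 (11.1%). Over all 16747 gene-end regions called in 9 or more adult lists, the shares were 12.03% and 7.84% with the vastus intermedius. With the soleus they were 19.39% and 6.99%. The adult regions thus had an excess of fast calls with the soleus, larger than over all these regions, and none with the vastus intermedius. For E18.5 regions at E18.5, with both slow-biased muscles, 28.4% had more fast and 18.9% more slow calls. Over all gene-end regions called in 9 or more E18.5 lists these shares were 12.7% and 8.76%.

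The regions at the limit of that test are named by rule. In the adult, the region at Gm46228 was called in 6 slow and 3 fast libraries and that at Gm36372 in 3 and 6. At Gm36474 and Klf10, which were called more at E18.5, all 3 adult calls came from slow-biased libraries. Klf10 encodes a zinc finger factor induced by TGF-beta. At E18.5, the 3 calls at Gm34043, Gm40863 and Rpl3l came from fast-biased libraries, the 3 at D930015M05Rik came from slow-biased ones, and Gm52766 had 3 slow and 6 fast calls. Fisher's exact p was 0.182, unadjusted and two-sided, for each of these regions.

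The width of the peaks that libraries called in a region gave a test that the selection does not prevent, added after the data were seen. Width, summed over all peaks a library called in a region, was compared between slow-biased and fast-biased libraries. The comparison used limma on log2 base pairs, centred per library, over all regions with enough calls. In the adult, 28 of 50590 regions passed, or 0.0553%, and 1 of them was a selected region, near the end of Mylk4 (chr13:32697433-32700771), a myosin light chain kinase family member. Its peaks spanned 598 bp in soleus 1, 258 bp in soleus 3, 273 bp in vastus intermedius 1 and 575 bp in vastus intermedius 3, and soleus 2 and vastus intermedius 2 had no call. They spanned 1683, 1691 and 2083 bp in gastrocnemius 1 to 3 and 1548, 2007 and 2652 bp in vastus lateralis 1 to 3. The summed width was larger in every fast-biased library than in every slow-biased library with a call. The geometric mean was 394 bp in slow-biased and 1912 bp in fast-biased libraries, a log2 difference of -2.19 ± 0.28 (SE; limma adjusted p = 0.0396). With the animal as a block the adjusted p was 0.121, and with any 1 animal left out no region of the genome passed.

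**Figure D5:**
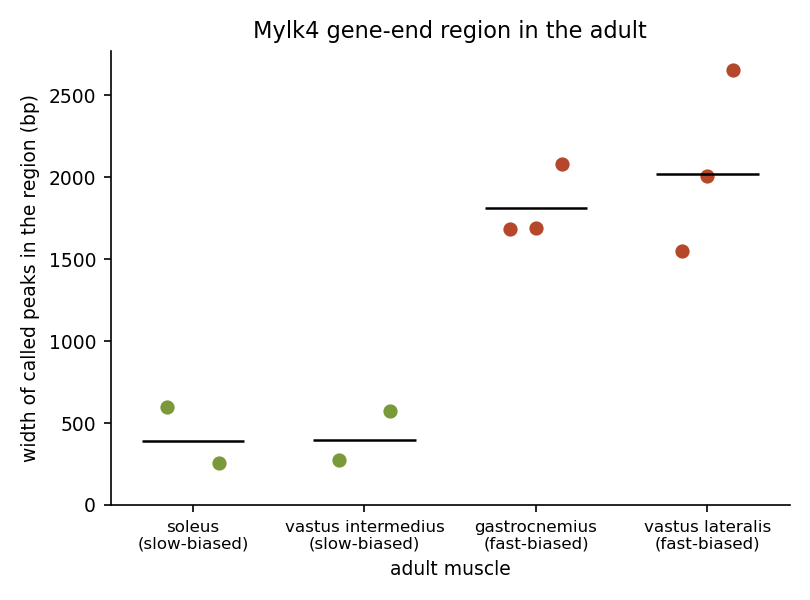
Summed width of the peaks called in the Mylk4 gene-end region (vertical axis, base pairs) in each adult library, by muscle (horizontal axis). Points are libraries and bars geometric means; slow-biased libraries lie between 258 and 598 bp and fast-biased libraries between 1548 and 2652 bp.

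Other adult regions did not pass this test. At an unadjusted p under 0.05, 26 of the 162 adult regions differed, 18 wider in fast-biased and 8 wider in slow-biased libraries, where 8.52% of all regions did. The region at Asb14 had a summed peak width of 764 bp in slow-biased and 1725 bp in fast-biased libraries. The log2 difference was -1.07 ± 0.39 (SE), with a limma adjusted p of 0.456. The slow-biased muscles were not alike there, with 1208, 399 and 258 bp in soleus 1 to 3 and 1991, 1205 and 664 bp in vastus intermedius 1 to 3. The region at the end of Txnip had 927 and 1682 bp, with -0.77 ± 0.28 (SE) and a limma adjusted p of 0.459. At Txnip, soleus 3 and vastus intermedius 3 had no call. At E18.5, 0 of 69405 regions passed the limma test after adjustment, and 36 of the 587 E18.5 regions differed at an unadjusted p under 0.05, where 4.71% of all regions did. In simulated widths of the adult the test recovered 30 of 200 regions changed by 1 on the log2 scale, so differences of that size would mostly be missed.

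The cutoff runs through a continuous range of differences. Just inside it, 75 adult regions differed by exactly 9 lists, with medians of 11 adult and 2 E18.5 calls. Just outside, 129 differed by 8, with medians of 9 and 1. In the E18.5 direction, 295 regions differed by 9, with medians of 2 adult and 11 E18.5 calls, and 465 differed by 8, with medians of 3 and 11. Differences of 10, 11 and 12 lists were found for 55, 22 and 10 adult regions and for 169, 82 and 41 E18.5 regions. Away from gene ends, the same cutoff gave 1495 adult regions (0.365%) and 4279 E18.5 regions (1.05%) of 409130, so the shares at gene ends were close to those elsewhere. Over all kept regions they were 0.361% and 1.06%.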

How the data were processed

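ATAC-seq peaks were analysed for 24 libraries. The authors deposited 1 peak list per library with chromosome, start and end only, no score, count or depth, so the sequencing depth is unknown. Per the submitters' processing notes the build was mm10 and the tools included MACS2 2.1.1, bedtools 2.25.0, Bowtie2 2.4.4, Picard, Trimmomatic 0.39.0 and SAMtools 1.14.0. Their settings, including any shift of reads for the transposase, were not stated in the sources used here. Such calls are yes or no, and a missing call is not absence of accessibility.

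Peaks of all lists on chromosomes 1 to 19, X and Y were merged where they overlapped or touched, and 459616 of 930761 regions called in 2 or more lists were kept. Gene starts and ends came from RefSeq on GRCm38.p6 for 34614 protein-coding and long non-coding genes. The strand was known for 78.1% of them through the promoter table, and other ends were left unassigned. The members, gene lists and tests were chosen with earlier results of these data known. Named genes were those of the lists with a selected region, the 10 unlisted coding genes per direction with the largest difference and the 5 regions per stage with the smallest fibre-bias p. A few genes that this rule selects are not reported here. Fibre bias used Fisher's exact test with Benjamini-Hochberg adjustment and, added later, limma 3.58.1 in R 4.3.3 on peak width. Peak width was the sum over all peaks a library called in a region. Python 3.11.15, numpy 2.4.6, pandas 2.3.3 and scipy 1.17.1 were used. The procedures were tested on simulated data. All 4 muscles of a replicate come from the same mouse or litter by the labels, which is the source of the pairing.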

Additional observations from a re-analysis of the deposited data

How the results depend on the processing

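Both counts depend on the cutoff and on how a call is defined. Requiring a list to cover 50% of a region gave 146 adult and 894 E18.5 regions, of which 35 and 107 were among the 162 and 587. Thinning lists at random to the length of the shortest gave 45 and 136, of which 38 and 103 were among them, and lowers counts by construction. A distance of 2500 bp gave 287 and 917, a difference of 8 lists 291 and 1052, a difference of 10 lists 87 and 292, and coding genes alone 88 and 322. Leaving out 1 animal or litter gave 152 to 205 adult and 416 to 1008 E18.5 regions, the latter without litter 3. Without adult 1 and litter 1 there were 265 adult regions, and without the soleus, added after seeing the data, 253. The cause of these shifts was not tested. Other alternatives kept both counts within 1.5 times. Of the 50 named regions, 9 still differed by 75 percentage points with 50% cover, where Cnn1 had a difference of 0, and 18 after thinning. None of the named differences turned in sign in 500 recomputations, and 103 of these moved by more than the SD over animals. The selection for large differences largely fixes the sign, so its keeping is not support for the regions. With 1 animal or litter left out, the smallest absolute difference among all selected regions was 62.5 percentage points.

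For fibre bias by Fisher's exact test, 1612 adult and 412 E18.5 regions had an unadjusted p under 0.05 and 0 passed adjustment, also with the replicate block (pairing by animal). For peak width in the adult, limma called 28 regions, 2 with the replicate block and 0 with any 1 animal left out. At E18.5 it called 0 with and without the block.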

Other observations

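RefSeq entries other than coding and long non-coding genes were also close to some regions with a difference of 9 or more lists. With all gene types counted there were 185 adult and 654 E18.5 regions. Among microRNA entries, the region near Mir133a-1, the gene of a microRNA typical of muscle, was called in 10 adult lists and 0 at E18.5, and that near Mir1960 in 11 and 0. The regions near Mir124a-2, of a family typical of neurons, and Mir190a were called in 1 and 2 adult lists and in 10 and 11 at E18.5. The region near Mir763 was called in 0 adult and 10 E18.5 lists. Transfer RNA genes on chromosomes 13 and 9, such as n-TAagc11 (1 adult and 12 E18.5 lists) and n-TEttc8 (3 and 12), were close to added regions called more at E18.5. Among the regions added in this way, none called more in the adult was close to one. The regions near coding and long non-coding genes were not searched for transfer RNA genes, and no share over all such genes was counted.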
